A study of Homo sapiens with 6 samples.

Results

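Glycolysis and the hypoxia response were followed through a list of 34 genes, of which 32 could be measured among the 18132 genes tested. The list holds 17 glycolytic enzymes, among them 2 PFKFB enzymes that set the pace of the pathway, and 17 further genes that low oxygen or glucose is known to induce, from the glucose transporters to secreted factors. A gene was measured by the brightest probe set that names it alone on the Affymetrix PrimeView array, a 1-colour oligonucleotide array, and sets marked _x_at, whose probes may match more than 1 transcript, served only where nothing else did. CA9, a membrane carbonic anhydrase, was not analysed here. SLC2A3, the neuronal glucose transporter GLUT3, was read by 5 probe sets that all name SLC2A14 too, so it entered no test.

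The arrays hold total RNA of growing ES-2 cells, a long-established line from a human ovarian cancer. Per the labels, 3 arrays were from cells overexpressing CADM1, an immunoglobulin-type adhesion molecule studied here as a tumour suppressor, and 3 from mock control ES-2 cells without it. The source names of 2 overexpression arrays read CADM2 and CADM3, while titles and genotype fields read CADM1 on all 3. How the overexpression was made, whether it is 1 clone, and the oxygen and glucose in the medium are not stated in those labels. Nor do they say whether arrays of 1 group are separate cultures, and p-values therefore reflect only how far these arrays differ, a spread that may be technical.

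The brightest CADM1 probe set ran against the labels. It read 8.14, 8.10 and 8.18 (log2 signal) on the arrays labelled overexpression and 10.24, 10.29 and 10.23 on the arrays labelled control, which puts the log2 fold change at -2.12 with an SE of 0.031 (limma, adjusted p = 5.45e-15). None of the other 5 CADM1 probe sets passed the test, and 3 of them were higher in the overexpression arrays. The largest of these differences was 0.17, from 7.72, 7.61 and 7.58 against 7.49, 7.44 and 7.46 without overlap (limma over all probe sets, adjusted p = 0.0962), the direction the labels give. The mean of all 6 gave -0.32 and was called, again against the labels (limma, adjusted p = 0.00131). Where the probe sets lie on the introduced sequence is not known here, so groups are called by their labels and every direction below is that of the labels. The keratin genes KRT7, KRT8 and KRT18 and VIM lay at 12.5 to 13.3, while EPCAM, at 2.90 and 3.01, and PAX8, at 4.74 and 4.57, lay under the median of all probe sets, 6.19. Of 11 epithelial markers 5 lay under that median, and none was called (5 had an unadjusted p under 0.05; limma). Over all genes 13.9% had an unadjusted p under 0.05 (limma). None of 4 blood, 4 mesenchymal and 5 fibroblast markers was called, nor had any an unadjusted p under 0.05, and all 4 blood and 4 of the fibroblast markers lay under that median. Of 4 endothelial markers 2 had an unadjusted p under 0.05, in opposite directions. CDH5 was called, with a mean of 6.50 against 6.77 in the control arrays, and KDR, with 5.38 against 5.12, was not (limma, adjusted p = 0.0475 and 0.23). PECAM1 and VWF gave 0.08 and 0.025 from overlapping groups, and the part of these markers in the results was not tested. On the array's own GAPDH controls, the 3′ minus 5′ signal ran from -0.141 to -0.124 in the overexpression arrays and from -0.15 to -0.143 in the control arrays. The groups do not overlap in this measure of RNA integrity, by a small margin, and its part in the results was not tested. For ACTB the same measure overlapped, from -0.073 to 0.0042 over the 6 arrays.

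Glycolysis splits glucose to pyruvate in the cytosol, and lactate dehydrogenase turns pyruvate into lactate where oxygen is short or growth is fast. Oxygen-dependent prolyl hydroxylases mark the alpha subunits of the hypoxia-inducible factors (HIF) for destruction through VHL. Without oxygen the subunits persist, pair with ARNT and switch on genes whose control regions carry the short core ACGTG or GCGTG. Many tumour cells run the pathway at a high rate even with oxygen present, and most of its enzymes are HIF targets.

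With each gene read by its chosen probe set, the calls among the members lay outside the enzymes. None of the 17 enzymes was called, against 5 of the 15 other measured members (limma, adjusted p under 0.05 over all genes). Of the enzymes 1 had an unadjusted p under 0.05, beside 13.9% of all genes (limma). SLC2A1, ADM and NDRG1 rose, and ANGPTL4 and TXNIP fell. Over all genes 2.16% were called, 0.96% as higher and 1.2% as lower, and of the 9756 genes with a mean no lower than 6.19, 3.86% were called. No call among 17 enzymes is close to those shares and does not set the enzymes apart from other genes. ALDOC, an enzyme, was called with the mean of its probe sets and with the brightest set of any type. The members were chosen with earlier results of these data known, so their counts are no independent support. The median log2 fold change was 0.0019 for the enzymes, -0.04 for the other measured members and 0.0085 for all genes. Groups did not overlap for 2 of 17 enzymes and for 9 of 15 other members, against 18.3% of all genes. In bulk RNA, fewer cells that express a gene and less of its RNA per cell cannot be told apart.

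**Figure D1:**
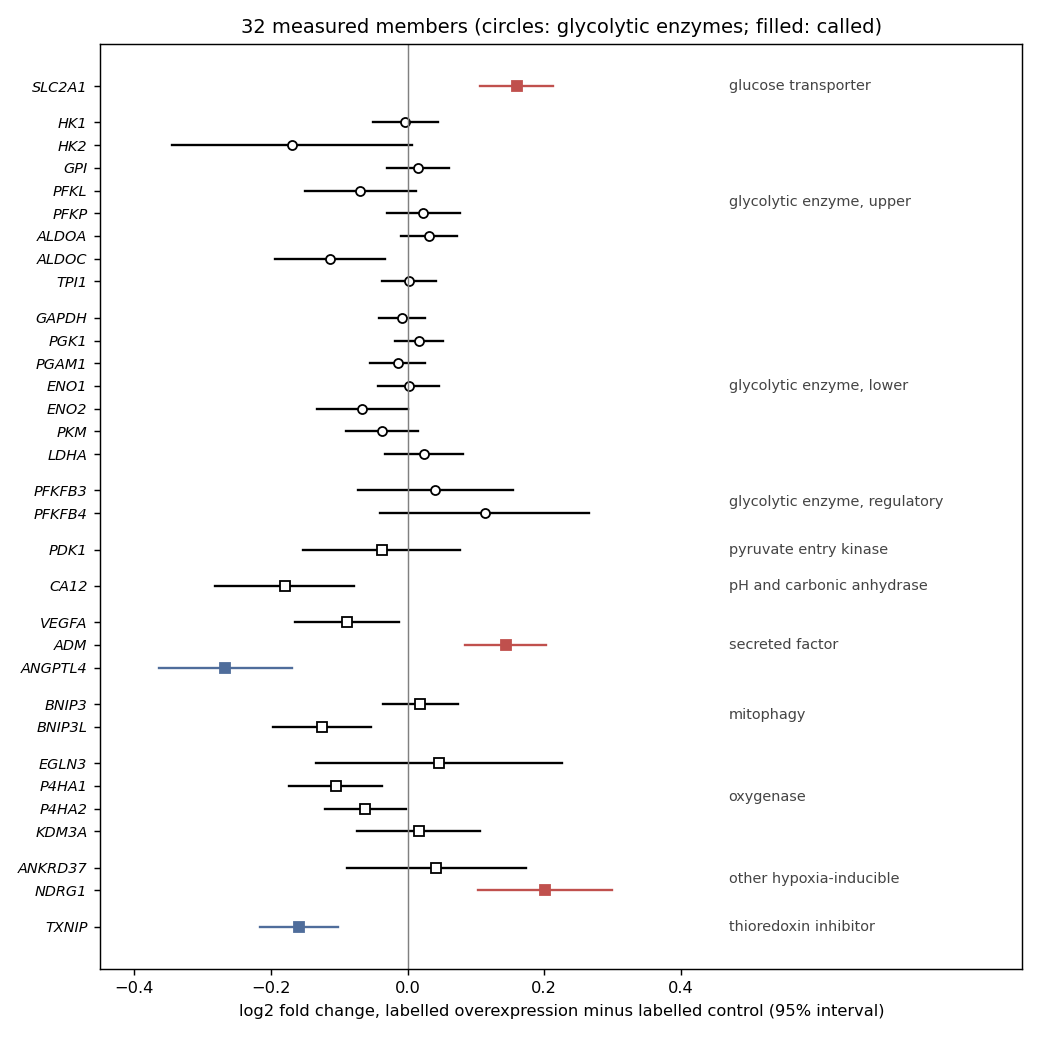
The log2 fold change of each of the 32 measured members, overexpression minus control by label, with its 95% interval (limma, 3 arrays a group), ordered by role. The 5 filled points were called: SLC2A1, ADM and NDRG1 lie to the right of 0 and ANGPTL4 and TXNIP to the left, while the intervals of 16 of the 17 enzymes include 0.

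SLC2A1, the glucose transporter GLUT1 that brings glucose through the plasma membrane, was the steadiest of the called members. It read 9.65, 9.68 and 9.66 on the overexpression arrays and 9.50, 9.51 and 9.50 on the control arrays. Every overexpression array lay above every control array, and the SD within a group was 0.0126 and 0.00345. This is a difference of 0.16 ± 0.025 (SE) on the log2 scale, 11.7% more signal (limma, adjusted p = 0.00347). All 4 SLC2A1 probe sets were higher in the overexpression arrays with no overlap between the groups, by 0.11 to 0.22, but the chosen set alone passed when each probe set was tested by itself. The call held without any 1 array, with adjusted p from 0.00854 to 0.0316. The 5 probe sets shared by SLC2A3 and SLC2A14 differed by -0.17 to 0.05 at levels of 3.64 to 6.34, with no test.

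In the upper steps of the pathway, which spends ATP to prepare and split the sugar, 7 of 8 enzymes gave intervals that include 0. HK1, a hexokinase that traps glucose as its phosphate, gave -0.0030 with an interval of -0.05 to 0.05. HK2, the inducible hexokinase of many tumours, was dim and variable. It read 6.03, 6.22 and 5.93 on the overexpression arrays and 6.32, 6.10 and 6.27 on the control arrays, and the groups overlap. Its log2 fold change of -0.17 has an interval of -0.35 to 0.0064 (limma, adjusted p = 0.381), so a change of that size could not be separated from the spread. GPI, which turns glucose phosphate into fructose phosphate, gave 0.015 and PFKP, the platelet-type phosphofructokinase of the committed step, gave 0.023. PFKL, the liver-type phosphofructokinase, read 8.68, 8.62 and 8.77 against 8.77, 8.77 and 8.74 (limma, adjusted p = 0.449). ALDOA, the main aldolase, gave 0.03 from overlapping groups at about 13 on the log2 scale (12.97, 12.99 and 13.00 against 12.98, 12.97 and 12.92; limma, adjusted p = 0.508). TPI1, which interconverts the triose phosphates, gave 0.0020.

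ALDOC, the brain-type aldolase, is the enzyme whose result turned on the choice of probe set. The chosen set read 8.35, 8.34 and 8.33 on the overexpression arrays and 8.52, 8.46 and 8.39 on the control arrays. The groups did not overlap, yet the log2 fold change of -0.11 ± 0.038 (SE) was not called (limma, adjusted p = 0.16). Each of the other 4 ALDOC probe sets was called when tested alone, with log2 fold changes of -0.31, -0.26, -0.20 and -0.23 (limma over all probe sets, adjusted p from 0.00618 to 0.0309). One of them, of the _x_at type, was brighter than the chosen set, at a mean of 8.72 against 8.40. It read 8.60, 8.58 and 8.67 on the overexpression arrays and 8.80, 8.82 and 8.83 on the control arrays. With the brightest set of any type the gene was called at -0.20 (limma, adjusted p = 0.00463), and with the mean of its 5 sets at -0.22 (limma, adjusted p = 0.00891). All 5 had the same sign.

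The lower steps of the pathway, which recover ATP and make pyruvate and lactate, differed least. The median size of the log2 fold change was 0.0166, against 0.0275 in the upper steps. All of the lower enzymes but ENO2 had a mean above 12, a level at which the upper enzymes ALDOA and TPI1 differed little too. All 7 enzymes were without a call, and for 6 of them the 95% interval lay within 0.1 on either side of 0. GAPDH, the dehydrogenase often used as a reference gene, read 13.82, 13.83 and 13.81 on the overexpression arrays and 13.82, 13.83 and 13.83 on the control arrays. PGK1, which makes the first ATP of the pathway, gave 0.017 and PGAM1, a phosphoglycerate mutase, gave -0.014. ENO1, the common enolase, gave 0.0019. ENO2, the neuronal enolase, read 9.09, 9.01 and 9.02 against 9.09, 9.09 and 9.13, groups that just miss each other (log2 fold change -0.07, interval -0.13 to 0.0001; limma, adjusted p = 0.36). PKM, the pyruvate kinase, gave -0.04, and all 6 of its probe sets had that sign. LDHA, the lactate dehydrogenase subunit induced by HIF, gave 0.02 with an interval of -0.03 to 0.08. Its other 3 probe sets had the opposite sign, none was called, and the largest was -0.03.

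The 8 enzymes with a mean above 12 all had intervals within 0.1 of 0. They include ALDOA, TPI1, GAPDH, PGAM1 and ENO1, the 5 members read only by _x_at sets. Among the 6 enzymes with a mean under 10 no interval was that narrow, and theirs reached from -0.35 to 0.27. The highest value in the whole table was 14.33, and GAPDH, PGK1 and LDHA lay within 1 log2 unit of it. The bifunctional enzymes PFKFB3 and PFKFB4, which make and break the activator of phosphofructokinase, gave 0.04 and 0.11. PFKFB4 read 6.61, 6.81 and 6.82 against 6.53, 6.63 and 6.74, and the groups overlap (limma, adjusted p = 0.533). PDK1, counted among the other members, is the kinase that shuts off pyruvate dehydrogenase, and it gave -0.04 (interval -0.15 to 0.08).

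**Figure D2:**
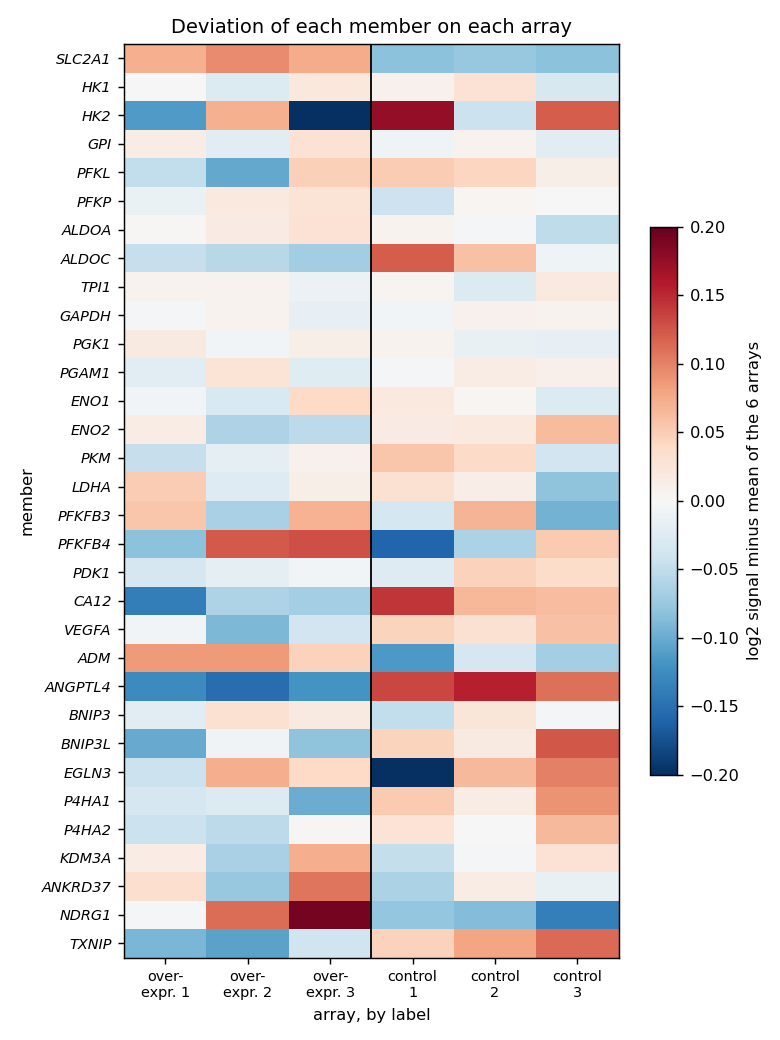
The log2 signal of each of the 32 measured members on each array, less that gene's mean over the 6 arrays (red above, blue below, values past 0.2 in either direction in the end colours), with the 3 overexpression arrays left of the line. SLC2A1, ADM, ANGPTL4 and TXNIP change colour at the line on every array. So do CA12, VEGFA, BNIP3L and P4HA1, which were not called, in part faintly. Most enzyme rows stay near white or vary within both groups.

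Among the secreted factors, ADM rose and ANGPTL4 fell. ADM encodes adrenomedullin, a vasodilator peptide that HIF induces. It read 9.86, 9.86 and 9.82 on the overexpression arrays and 9.66, 9.74 and 9.70 on the control arrays, with no overlap. The log2 fold change was 0.14 ± 0.028 (SE), 10.5% more signal (limma, adjusted p = 0.014), and each of its 3 probe sets was called by itself, at 0.13 to 0.17. The ADM call was lost without the first overexpression array (adjusted p = 0.0991), the second overexpression array (0.0605) or the first control array (0.0992).

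ANGPTL4 encodes a secreted inhibitor of lipoprotein lipase that hypoxia, fasting and fatty acid sensing receptors of the PPAR family induce. It had the largest fall among the members. The overexpression arrays read 7.02, 7.00 and 7.03 and the control arrays 7.28, 7.31 and 7.26, well apart. On the log2 scale the difference was -0.27 ± 0.046 (SE), so that the signal fell by 16.9% (limma, adjusted p = 0.00688). One probe set reads this gene, and its call held without any 1 array, with adjusted p from 0.0142 to 0.0425. VEGFA, the main growth factor for blood vessels, was not called. It read 8.23, 8.15 and 8.20 against 8.28, 8.27 and 8.30, groups that do not overlap (log2 fold change -0.09, limma, adjusted p = 0.264), and 7 of its 10 probe sets had that sign.

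NDRG1, a stress-induced gene named for its regulation downstream of N-myc, rose with the most uneven values of the 5. Its overexpression arrays read 8.18, 8.30 and 8.38 and its control arrays 8.11, 8.10 and 8.05. The lowest overexpression array lay just above the highest control array. Its log2 fold change was 0.20 ± 0.046 (SE), with an interval of 0.10 to 0.30 (limma, adjusted p = 0.0368). All 6 NDRG1 probe sets were higher in the overexpression arrays, from 0.07 to 0.20, and 1 was called by itself. The mean of the 6 gave 0.13, which was not called. The call was also lost without overexpression array 2 (adjusted p = 0.121) or 3 (0.0931) and without control array 1 (0.105), 2 (0.0902) or 3 (0.0989). ANKRD37, a small ankyrin repeat protein among the HIF targets, gave 0.04 with an interval of -0.09 to 0.17.

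TXNIP binds and inhibits thioredoxin and restrains glucose uptake, and it is known to follow the cell's glucose as well as its oxygen. It fell: the overexpression arrays read 10.21, 10.20 and 10.26 and the control arrays 10.35, 10.38 and 10.42. The groups lie apart on every array. The log2 fold change was -0.16 ± 0.026 (SE), and the signal fell by 10.4% (limma, adjusted p = 0.00554). All 5 TXNIP probe sets were lower, by -0.17 to -0.11, and 3 were called by themselves. Without the first overexpression array the adjusted p was 0.0556, past the threshold.

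Without the mean-variance trend in the limma fit none of the 5 calls remained, with adjusted p from 0.0887 for ANGPTL4 to 0.277 for NDRG1. That fit called 11 genes in all, and 10 members had an unadjusted p under 0.05 in it. With the trend, 13.9% of all genes had an unadjusted p under 0.05 (limma), and the share without it was not counted.

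**Figure D3:**
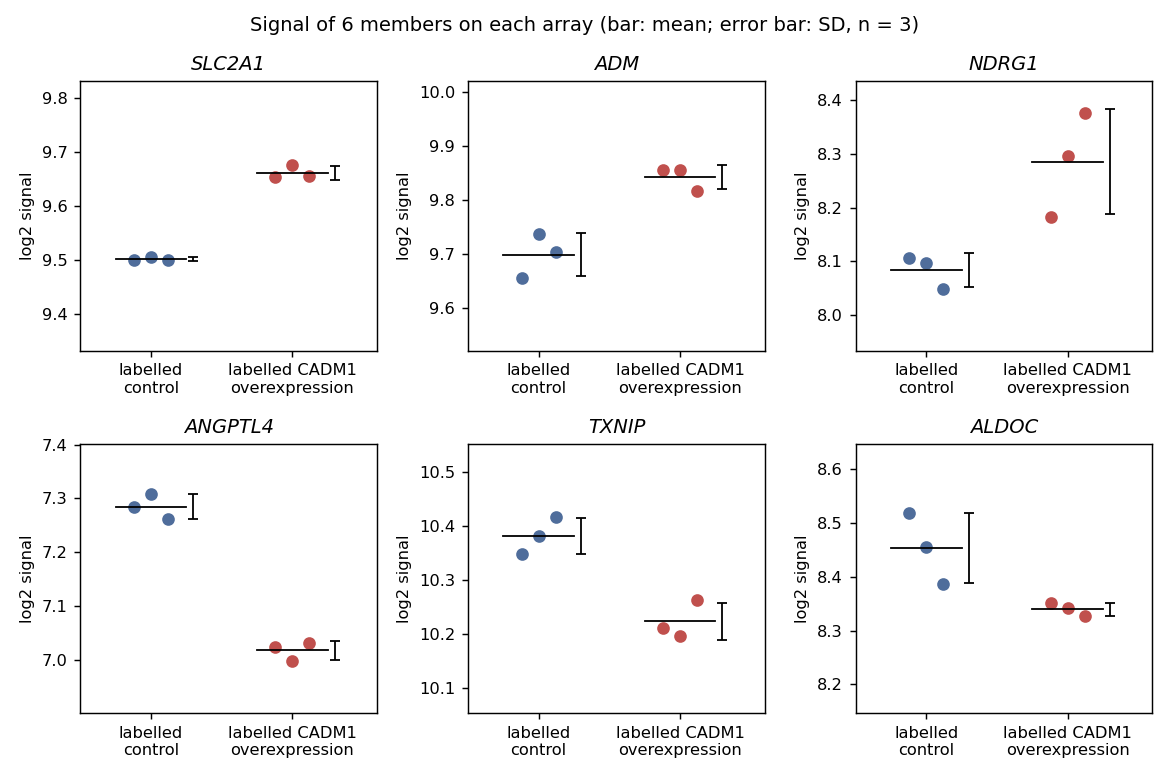
The log2 signal on each array of the 5 called members and of ALDOC, with the mean and the SD of 3 arrays by labelled group, on axes that span 0.5 log2 units each and do not start at 0. In each panel the points of the 2 groups do not overlap, with ANGPTL4 at 7.00 to 7.03 against 7.26 to 7.31 and NDRG1 the most spread.

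The remaining members fell just short of the threshold or well within the spread. CA12, a membrane carbonic anhydrase that helps tumour cells handle acid, was the nearest to a call. It read 7.12, 7.19 and 7.19 on the overexpression arrays and 7.40, 7.32 and 7.32 on the control arrays (log2 fold change -0.18, interval -0.28 to -0.08; limma, adjusted p = 0.069). Its groups do not overlap, and 4 of its 5 probe sets had that sign. The chosen set and another of them run exactly parallel over the arrays, both at -0.18, so they do not count as separate readings. BNIP3L, a mitochondrial receptor that sends the organelle to autophagy, read 9.52, 9.61 and 9.54 against 9.67, 9.64 and 9.75 (log2 fold change -0.13; limma, adjusted p = 0.0723). Only 4 of its 6 probe sets had that sign, 2 of its sets hold identical values, and the mean of all gave -0.05. Its relative BNIP3 gave 0.019 from overlapping groups.

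The oxygenases use molecular oxygen as a substrate. P4HA1, a collagen prolyl hydroxylase subunit, read 9.02, 9.02 and 8.95 against 9.10, 9.07 and 9.14 without overlap (log2 fold change -0.11; limma, adjusted p = 0.119). P4HA2, another isoform of that subunit, read 9.67, 9.66 and 9.71 against 9.73, 9.71 and 9.77, and the groups overlap by a hair (limma, adjusted p = 0.326). EGLN3, a prolyl hydroxylase of HIF that is itself induced by hypoxia, gave 0.05 with a wide interval of -0.13 to 0.23. KDM3A, a histone demethylase, gave 0.016 by the chosen probe set. A dimmer KDM3A set was called alone, reading 5.88, 5.91 and 5.94 against 6.25, 6.13 and 6.47 (log2 fold change -0.37; limma over all probe sets, adjusted p = 0.0291). The remaining one was not called, so the KDM3A sets disagree.

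Over all 110 probe sets that name 1 measured member, 14 were called, from 7 genes: the 5 called members, ALDOC and KDM3A. The same test called 1.5% of the 44988 probe sets that name 1 gene. Of the 14, ALDOC gave 4 and ADM and TXNIP 3 each. Sets of 1 gene read the same RNA on the same arrays, so they are not independent readings. The members were also chosen with earlier results known, so this count is no independent support. Of the 25 members with more than 1 probe set, 16 had sets of a single sign and 9 had both.

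**Figure D4:**
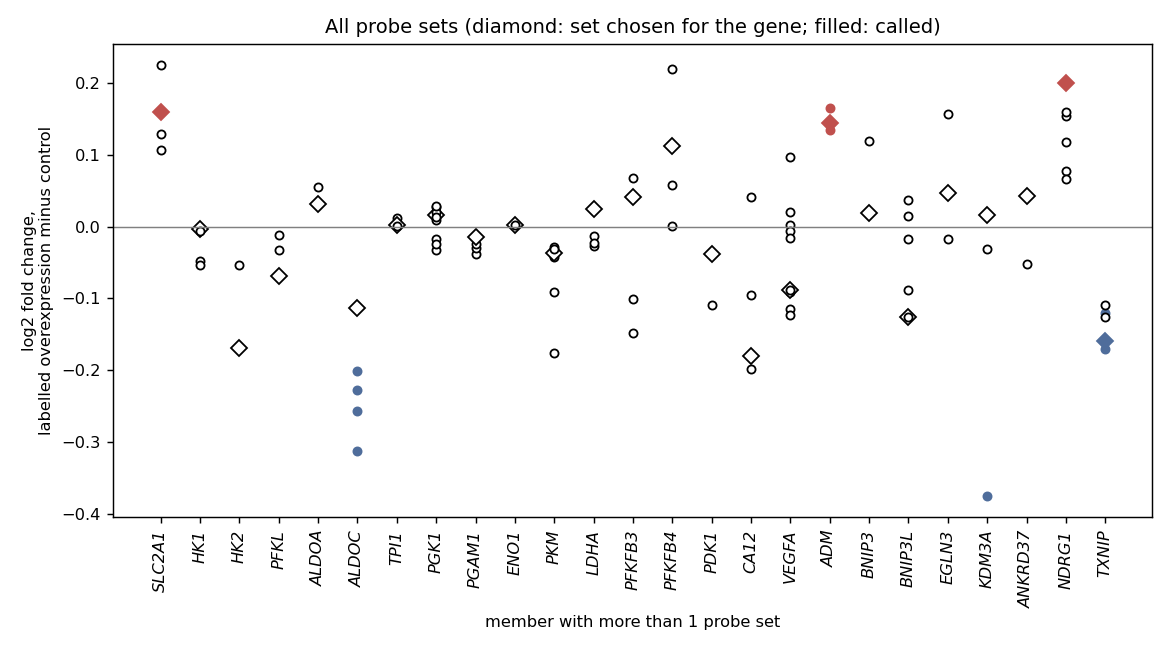
The log2 fold change of every probe set of the 25 members that have more than 1, overexpression minus control by label, with diamonds for the set chosen for the gene and filled marks for sets called over all probe sets. ALDOC has 4 filled points below its unfilled diamond, ADM has 3 filled marks above 0, and KDM3A has 1 filled point at -0.37.

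To show what lies before the start sites of the called members, the 250 bases before the annotated start are printed for SLC2A1, ADM, ANGPTL4 and TXNIP, and for LDHA as a classical HIF target that was not called. They come from a table of RefSeq start sites (GRCh38.p14) in which 30 of the 34 members matched; the called member NDRG1, VEGFA, BNIP3L and SLC2A3 have no window here. Where a gene has 2 windows, the more upstream start is shown. Capitals mark the HIF core, ACGTG or GCGTG on either strand (CACGT and CACGC where it lies on the other strand), and the pair CACGNG, 5 bases, CACGNG through which the glucose-sensing factors MondoA and ChREBP act with MLX. The pair was searched on both strands and may overlap a core. SLC2A1 is at chr1:42958869-42959118 (minus strand), ADM at chr11:10304823-10305072 (plus), ANGPTL4 at chr19:8363905-8364154 (plus), TXNIP at chr1:145996580-145996829 (minus) and LDHA at chr11:18394313-18394562 (plus), each window lying directly before the first exon.
SLC2A1: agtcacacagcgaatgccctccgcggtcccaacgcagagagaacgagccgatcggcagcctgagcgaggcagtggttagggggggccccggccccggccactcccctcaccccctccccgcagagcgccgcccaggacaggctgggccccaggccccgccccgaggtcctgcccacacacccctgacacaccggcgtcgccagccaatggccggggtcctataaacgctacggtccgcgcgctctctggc
ADM: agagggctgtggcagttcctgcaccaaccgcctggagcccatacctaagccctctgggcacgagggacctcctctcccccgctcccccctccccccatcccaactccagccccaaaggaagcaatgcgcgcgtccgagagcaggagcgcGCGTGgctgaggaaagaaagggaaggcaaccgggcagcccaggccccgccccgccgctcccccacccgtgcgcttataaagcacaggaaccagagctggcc
ANGPTL4: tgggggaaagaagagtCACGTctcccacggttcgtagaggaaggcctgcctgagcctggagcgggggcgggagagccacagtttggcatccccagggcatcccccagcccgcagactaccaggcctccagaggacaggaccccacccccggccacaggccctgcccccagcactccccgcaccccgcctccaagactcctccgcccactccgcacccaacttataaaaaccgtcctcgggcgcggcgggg
TXNIP: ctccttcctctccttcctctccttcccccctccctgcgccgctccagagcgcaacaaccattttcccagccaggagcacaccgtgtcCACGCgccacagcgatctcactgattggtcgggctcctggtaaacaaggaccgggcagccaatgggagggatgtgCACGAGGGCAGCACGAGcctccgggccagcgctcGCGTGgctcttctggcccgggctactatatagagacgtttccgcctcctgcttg
LDHA: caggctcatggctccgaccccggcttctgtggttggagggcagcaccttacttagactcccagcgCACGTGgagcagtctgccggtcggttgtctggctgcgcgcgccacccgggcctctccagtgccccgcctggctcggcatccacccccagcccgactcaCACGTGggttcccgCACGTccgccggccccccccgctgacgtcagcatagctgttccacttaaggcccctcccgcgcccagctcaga

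Of these windows, that of TXNIP holds the glucose-response pair, from 88 to 72 bases before the start, and 2 matches of GCGTG. The pair occurs in 0.0456% of the 35116 windows of all genes, and among the members P4HA1 has it too. ANGPTL4 holds 1 match of ACGTG and ADM 1 of GCGTG, while the SLC2A1 window holds none of the 3 motifs. LDHA, whose level did not pass the test, holds 5 matches of ACGTG when both strands are counted, 4 of them from the palindrome CACGTG. One or the other core occurs in 43.2% of all windows and in 33 of the 48 windows of members. A match describes the letters and does not show that a factor binds.

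Further genes of the pathway were taken from 7 lists, with 148 of 161 genes measured, of which 7 rose and 4 fell (limma, adjusted p under 0.05 over all genes). This is 7.43%, beside 2.16% of all genes and 3.86% of genes with a mean no lower than 6.19. Of the 148 genes, 39 had a mean under that level. These lists were chosen with earlier results of the data known, so the share is no independent support. The median log2 fold change was -0.0049. Among 28 other genes of glycolysis and lactate handling none was called (3 had an unadjusted p under 0.05, beside 13.9% of all genes). The lowest p-values there belonged to TIGAR, a bisphosphatase that slows glycolysis, at 0.10 (limma, adjusted p = 0.169), and to ENO3, the muscle enolase, at -0.08 (0.182). Of 6 pentose phosphate genes none was called either (3 had an unadjusted p under 0.05), with TALDO1 at 0.06 and TKT at 0.06. In the group around pyruvate dehydrogenase, 1 of 14 rose: MPC2, a subunit of the mitochondrial pyruvate carrier, by 0.11 ± 0.026 (SE; limma, adjusted p = 0.0383). All 4 of its probe sets had that sign.

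Of 17 HIF subunits and oxygen sensors 1 was called, which is 5.88% beside 2.16% of all genes. A single call among so few genes does not set the list apart. EPAS1, the HIF-2 alpha subunit, read 9.68, 9.67 and 9.68 on the overexpression arrays and 9.78, 9.79 and 9.82 on the control arrays. The groups do not overlap, and it fell by 0.12 on the log2 scale (SE 0.025; limma, adjusted p = 0.0192). HIF1A, the HIF-1 alpha subunit, gave -0.05 with an interval of -0.10 to 0.0075 and was not called, although all 8 of its probe sets had that sign. Its partner ARNT gave -0.03 and VHL, the ubiquitin ligase subunit, gave -0.05. These are transcript levels, whereas HIF alpha subunits are controlled mainly as proteins, which the arrays do not measure.

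Of 48 other hypoxia targets 4 rose and 2 fell, which is 12.5% beside 2.16% of all genes. The list was chosen with earlier results known, so this share is no independent support. EDN1, the endothelin precursor, rose by 0.34 and GBE1 and PPP1R3C, an enzyme and a phosphatase subunit of glycogen synthesis, rose by 0.18 each (limma, adjusted p = 0.00316, 0.0147 and 0.037). PLOD2, a collagen lysyl hydroxylase, rose by 0.10. INHA, the inhibin alpha subunit, fell by 0.25 from 8.65, 8.70 and 8.70 on the control arrays to 8.43, 8.39 and 8.49 (limma, adjusted p = 0.00159). INSIG1, which holds back sterol synthesis, fell by 0.13 (limma, adjusted p = 0.0194). So this list, like the members, held genes of both directions.

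Around TXNIP, 2 of 12 genes of the glucose sensor, arrestin and thioredoxin list were called, 16.7% beside 2.16% of all genes. TXNRD2, the mitochondrial thioredoxin reductase, rose by 0.14 (limma, adjusted p = 0.0124), and MLX, the DNA-binding partner of the glucose sensors, fell by 0.11 (limma, adjusted p = 0.0416). ARRDC4, an arrestin related to TXNIP and, like it, a target of MondoA, missed the threshold. It read 5.58, 5.58 and 5.37 on the overexpression arrays and 5.82, 5.91 and 5.77 on the control arrays, without overlap (log2 fold change -0.32, interval -0.49 to -0.15; limma, adjusted p = 0.0513). Its level is below the median of all probe sets, and it is named here after its value was seen. The other arrestins of the list did not share its fall. ARRDC1, ARRDC3 and ARRDC5 gave 0.03, 0.0069 and 0.05 and ARRDC2 gave -0.03, all from overlapping groups and uncalled.

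Around ANGPTL4, 1 of 23 PPAR factors and targets was called. This is 4.35%, beside 2.16% of all genes and 3.86% of genes with a mean no lower than 6.19. Such a count does not set the list apart. The called gene was LPL, the lipoprotein lipase that ANGPTL4 inhibits, and it rose. It read 10.85, 10.85 and 10.88 on the overexpression arrays against 10.67, 10.65 and 10.69 on the control arrays. The difference was 0.19 ± 0.022 on the log2 scale (SE; limma, adjusted p = 0.000382), and all 3 LPL probe sets were called by themselves.

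LPL, EDN1 and INHA were called without any 1 array. The other 8 of these 11 genes lost the call in some fits that left out 1 array. GBE1 (adjusted p = 0.0505 to 0.114) lost it without overexpression array 1 or control array 1 or 2. TXNRD2 (0.0586 to 0.0688) lost it without the same arrays. INSIG1 (0.0673 to 0.103) lost it without overexpression array 1 or control array 1 or 3. PPP1R3C (0.0692 to 0.167) did so without overexpression array 1 or 3 or control array 1 or 3. PLOD2 (0.0866 to 0.125) did so without overexpression array 1 or 2 or control array 1 or 2. EPAS1 (0.0634 to 0.0911) was called only when overexpression array 3 was left out, MPC2 (0.0876 to 0.178) only when overexpression array 2 was, and MLX (0.0538 to 0.146) in none of the 6 fits. PLOD2 and MPC2 also lost the call with the brightest probe set of any type. With the mean of all probe sets PLOD2, at 0.09, MPC2, at 0.11, TXNRD2, at 0.09, and MLX, at -0.03, lost it. Without the mean-variance trend none of the 11 was called.

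**Figure D5:**
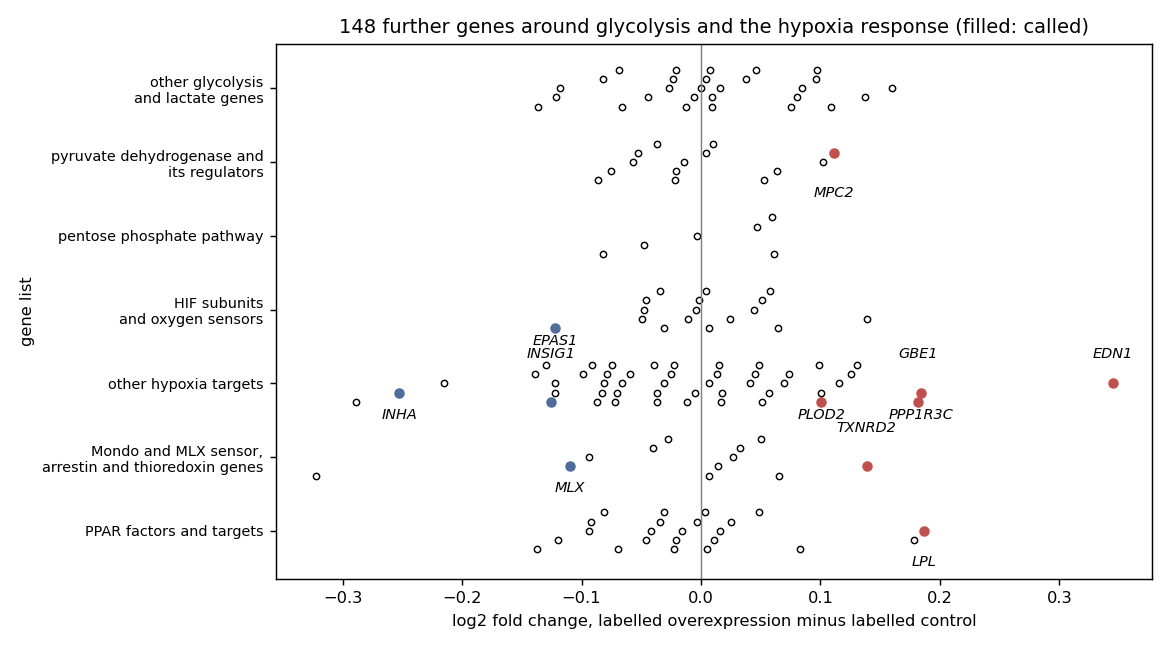
The log2 fold change of 148 further genes in 7 lists, overexpression minus control by label, with called genes filled and named. The 7 genes that rose and the 4 that fell are spread over 5 lists, and the other glycolysis genes and the pentose phosphate genes hold no filled point.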

How the data were processed

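The authors deposited log2 values of 49395 probe sets on 6 arrays. The submitters' processing notes name MAS5 for them, without version or settings. The log2 scale was inferred from the range, 2.15 to 14.33, and from array medians of 6.18 to 6.20. The narrow low end and a median SD of 0.065 within a group look more like the output of RMA than of MAS5, so the summary method is unsettled, and with it the meaning of low values and of small fold changes. How arrays were scaled is unknown here. No detection calls or scanner files were used. Of the probe sets, 44988 named 1 gene, 1832 several and 2473 none, and 102 were array controls. Gene numbers of 44961 matched RefSeq (GRCh38.p14), which gave the symbols.

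The comparison of labelled groups used limma (version 3.58.1, R 4.3.3) with a linear fit and eBayes with a mean-variance trend, two-sided, adjusted by Benjamini-Hochberg over 18132 genes. No filter or further normalization was applied. The fit was tested on simulated data. Members and lists were chosen with earlier results of these data known. Called members and the 10 uncalled with the lowest p were given by array. From the further lists the called genes, or the 2 with the lowest p, were named, and only some of them were given by array. HIF1A, ARNT, VHL and the arrestins, which were not called, were named outside this rule. Alternatives were quantile normalization, median centring, an offset of 32 on the linear scale, a filter on dim genes, other probe sets, no trend, array weights, robust eBayes, a replicate block and leaving out each array. The brightest probe set of any type was added after seeing the data. Figures used matplotlib 3.10.9.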

Additional observations from a re-analysis of the deposited data

How the results depend on the processing

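With 3 arrays a group, the number of arrays limits the precision, and signal over background was not assessed. The median log2 fold change of the enzymes ran from -0.0097 to 0.0098 over the alternatives run, on both sides of 0. That of the other members ran from -0.06, without the first control array, to -0.011, without TXNIP. Neither the 5 called members nor the 11 called further genes changed sign. Without a mean-variance trend 0 members were called higher and 0 lower, and 11 genes in all (10 members had an unadjusted p under 0.05; limma). With the trend, 11 members and 13.9% of all genes had an unadjusted p under 0.05 (limma). Among genes at or above the median level 4 members were called lower, CA12 and BNIP3L besides ANGPTL4 and TXNIP, where fewer genes were tested. Testing each probe set called 677, more being tested. Leaving out 1 array gave 116 to 375 called genes, 1 to 2 members called higher and 1 to 2 called lower. With the replicate number as a block 172 genes were called, 1 member as higher, SLC2A1, and 2 as lower, ANGPTL4 and TXNIP. The labels state no pairing of the arrays. Deviations of same-numbered arrays from their group means correlated at 0.13, -0.07 and -0.07. With 3 arrays a group, such values cannot show whether the arrays are paired. The cause of these differences was not tested.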
